A study of Sus scrofa with 4 samples.

Results

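The carnitine system comprises the enzymes and carriers that make carnitine, bring it into cells and use it to move acyl groups across membranes. Its transcripts were examined here in piglet liver with and without dietary L-carnitine. The genes considered were CPT1A, CPT1B, CPT2, SLC25A20, CRAT, CROT, SLC22A5, TMLHE and ALDH9A1, and each was represented by all probe sets to which the array's annotation gives one of these symbols and no other. Of the 9 genes, 8 had a probe set, exactly 1 each, so that 8 of the 23999 probe sets tested, and 8 of the 6765 genes with an unambiguous symbol, belong to the system. No probe set was matched to CROT, the peroxisomal carnitine octanoyltransferase, which was not analysed here.

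The carnitine group received a basal diet with 500 mg added L-carnitine per kg, and the control group received the basal diet alone, which the study describes as low in native carnitine. Male crossbred pigs from a Pietrain cross with German Landrace and Large White weighed 10 ± 1 kg at 4 weeks of age, were fed for 21 days and were sampled at 7 weeks of age, 2.5 h after the last meal. Each group had 8 pigs, whose liver RNA was combined into 2 pools of 4 pigs, and each pool was hybridized to 1 single-colour Affymetrix porcine GeneChip. The samples compared are therefore 2 carnitine pools and 2 control pools, and p-values set the difference between the diets against the spread of pools, not of single pigs. In limma this spread is partly borrowed from other probe sets. In such bulk RNA fewer cells of a type cannot be told apart from less RNA per cell.

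Carnitine is made from trimethyllysine, an amino acid released when methylated proteins are broken down. TMLHE hydroxylates it in the first step of the route, and ALDH9A1 oxidizes trimethylaminobutyraldehyde to butyrobetaine, from which liver and kidney make carnitine. SLC22A5, also called OCTN2, takes carnitine up through the plasma membrane. In the outer mitochondrial membrane CPT1 passes long-chain acyl groups from CoA to carnitine, SLC25A20 exchanges the acylcarnitine for free carnitine across the inner membrane, CPT2 returns the acyl group to CoA in the matrix, and CRAT does the same exchange with short acyl groups such as acetyl. CPT1A is the isoform of liver and CPT1B that of muscle.

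The values are MAS5 signals, a linear intensity that combines all probe pairs of a set after background subtraction and is scaled to a common level on every array. The median signal over the probe sets was 109 and 113 for the carnitine pools, against 114 for each control pool. Differences are given as carnitine minus control on the log2 scale, from a limma fit over all probe sets, and adjusted p-values follow Benjamini and Hochberg over the same 23999 probe sets. The limma error combines a probe set's own pools (2 residual degrees of freedom) with the spread over other probe sets (5.18 prior degrees of freedom). The unadjusted p of CPT1A was 0.074 in limma and 0.260 by a one-factor test on its own pools. For ALDH9A1 the values were 0.188 in limma and 0.134 by the one-factor test. No member passed an adjusted p of 0.05 (0 of 8, beside 0.00417% of all probe sets), and none had an unadjusted p under 0.05 in limma (0 of 8, beside 8.65% of all probe sets).

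Within carnitine synthesis, TMLHE gave signals of 361 and 468 in carnitine pools, against 198 and 441 in control pools. One control pool lay below every other pool, while the remaining control pool lay between the carnitine pools, so that the diets overlapped. The log2 difference of TMLHE was 0.48 (standard error 0.40, adjusted p = 0.777 from limma), with a 95% interval of -0.46 to 1.41. ALDH9A1 gave signals of 10923 and 9872 in carnitine pools, against 13341 and 11846 in control pools. Both carnitine pools were below both control pools, by a small amount that gave a log2 difference of -0.28 (standard error 0.19, 95% interval -0.72 to 0.17, adjusted p = 0.722 from limma).

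The uptake transporter SLC22A5 gave signals of 309 and 304 in carnitine pools, against 227 and 317 in control pools. The 2 carnitine pools were nearly equal and lay between the control pools. Its log2 difference was 0.19 (standard error 0.28, adjusted p = 0.886 from limma), and the 95% interval, which ran between 0.72 and 1.82 times the control level, includes no difference and also leaves room for a change of more than 1.5-fold upward.

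CPT1A, the step that commits long-chain acyl groups to mitochondrial oxidation, gave signals of 3345 and 5294 in carnitine pools, against 3002 and 2878 in control pools. Both carnitine pools were higher than both control pools, but carnitine pool 2 was 1.58 times as high as carnitine pool 1, whereas the control pools differed by a factor of 1.04. The log2 difference was 0.52 (standard error 0.25, adjusted p = 0.619 from limma), a 1.43-fold level with a 95% interval of 0.956 to 2.14. Carnitine pool 1 alone exceeded the control pools by only 0.16 and 0.22 on the log2 scale.

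SLC25A20, the carrier that works next in the shuttle, showed nearly the same signals relative to its own mean. It gave 1311 and 1982 in carnitine pools, against 1135 and 1107 in control pools, again with the carnitine pools above the control pools and carnitine pool 2 the highest. The log2 difference was 0.52 (standard error 0.24, 95% interval -0.047 to 1.09, adjusted p = 0.610 from limma). The distance between the carnitine pools, 0.60 on the log2 scale, was larger than the difference between the diets.

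CPT1B and CPT2 gave dim signals, both with a mean below the median of all probe sets, where the error of a MAS5 signal is largest. CPT1B had 70.2 and 23.5 in carnitine pools, against 111.9 and 66.4 in control pools. Carnitine pool 1 lay between the control pools, so that the diets overlapped in spite of a log2 difference of -1.08 (standard error 0.65, 95% interval -2.62 to 0.45, adjusted p = 0.694 from limma). It was the 1 member of 8 at 2-fold or more, beside 16% of all probe sets, and it was under 2-fold with a floor at the 25th percentile (-0.98), with arithmetic means (-0.93) and with an offset of 64 added to all signals (-0.48).

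For CPT2 the signals were 37.2 and 80.8 in carnitine pools, against 58.2 and 72.9 in control pools. The carnitine pools enclosed the control pools, and the log2 difference of -0.25 had a standard error of 0.55 (adjusted p = 0.925 from limma). Its 95% interval, 0.34 to 2.07 times the control level, shows that the array could not resolve a change of 2-fold in either direction for the inner membrane transferase.

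CRAT, which makes acetylcarnitine and other short-chain acylcarnitines, gave signals of 3895 and 5990 in carnitine pools, against 4365 and 3163 in control pools. Carnitine pool 2 was again the highest pool, and carnitine pool 1 lay between the control pools. The log2 difference was 0.38 (standard error 0.27, 95% interval -0.25 to 1.01, adjusted p = 0.733 from limma).

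**Figure D1:**
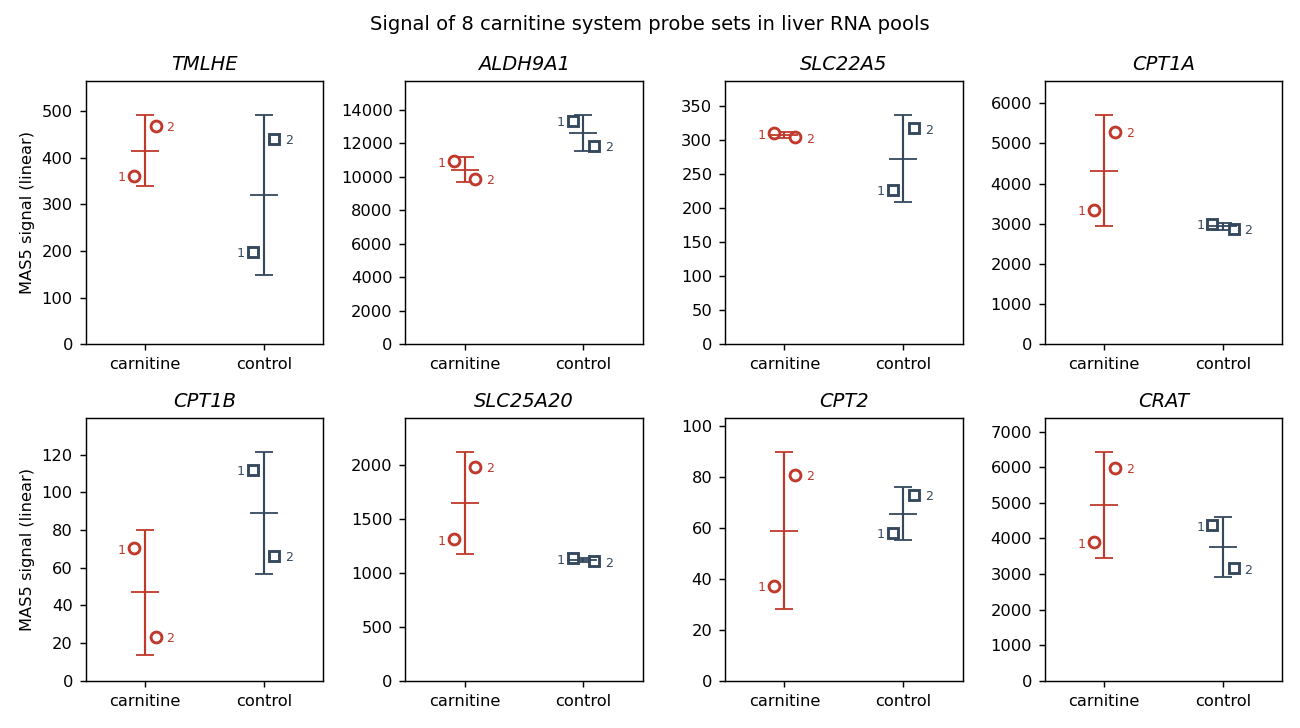
MAS5 signal (linear axis from 0) of each carnitine system probe set in the carnitine pools (circles, left) and the control pools (squares, right), with pool numbers, the mean as a horizontal tick and the SD as bars (n = 2 pools). For CPT1A and SLC25A20 carnitine pool 2, at 5294 and 1982, stands above the other 3 pools, and for TMLHE and SLC22A5 control pool 1, at 198 and 227, stands below them.

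Across the system 5 probe sets had a log2 difference above 0 and 3 below 0, with a median of 0.29, whereas the median over the brightest probe set of all 6765 genes with 1 symbol was -0.0089. With each probe set centred on its mean over the arrays, the median of the system was -0.051 and 0.43 in carnitine pools, against -0.13 and 0.099 in control pools, so that carnitine pool 1 lay between the control pools. In 3 of the 8 members (CPT1A, SLC25A20 and ALDH9A1) the pools of the diets did not overlap, which is 37.5% beside 39.6% of all probe sets, hence a share near the background. Of these, 2 were higher (background 19.2%) and 1 was lower (background 20.4%) in the carnitine pools. Among the 6 members above the median signal the same 3 did not overlap, beside 43.9% of all such probe sets (21.9% higher and 22% lower). None of these 6 passed the adjusted p (background 0.00833%), an unadjusted p under 0.05 (12%, with 6.74% higher and 5.24% lower) or a 2-fold difference (3.65%).

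**Figure D2:**
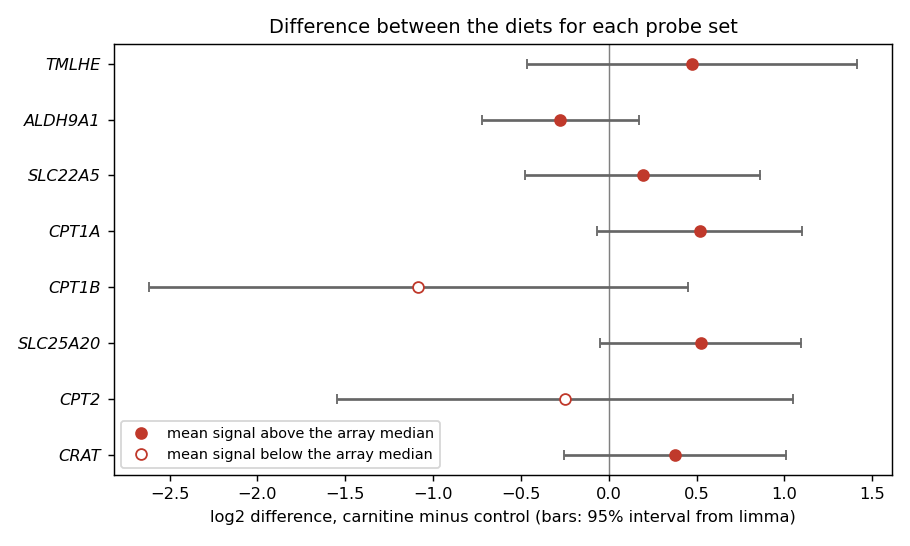
Log2 difference of each carnitine system probe set, carnitine minus control, with its 95% interval from limma, as filled points where the mean signal exceeded the array-wide median and open points where it did not. All 8 intervals include 0, and those of the dim CPT1B (-2.62 to 0.45) and CPT2 (-1.55 to 1.05) are the widest.

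The similarity of CPT1A and SLC25A20 was measured as the root mean square difference of their log2 signals, each centred on its own mean over the 4 arrays. It was 0.025, the smallest of the 28 pairs of members. Among 5038 other genes with a mean signal above the median, SLC25A20 was the gene nearest to CPT1A and CPT1A the gene nearest to SLC25A20. CRAT ranked 144 for CPT1A and 216 for SLC25A20, with distances of 0.16 and 0.17. With only 4 arrays many genes share any given pattern: 30 genes lay within 0.1 of CPT1A and 374 within 0.1 of ALDH9A1. After SLC25A20 the genes nearest to CPT1A were DESI1 (0.041) and GTF2H4 (0.041), and after CPT1A those nearest to SLC25A20 were OAT, the ornithine aminotransferase (0.026), and ABCF2 (0.034). Nearest to ALDH9A1 were CIB1 (0.0080), RPS18, a protein of the small ribosomal subunit (0.015), and BTK (0.018).

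Carnitine pool 2 had the highest of the 4 signals for 5 of the 8 members, namely CPT1A, SLC25A20, CPT2, CRAT and TMLHE, and the lowest for CPT1B and ALDH9A1. Over all genes with 1 symbol the same pool was the highest for 27.7% and the lowest for 25.8%. Relative to its own mean over the 4 arrays, the log2 signal in this pool was 0.59 for CPT1A, 0.56 for SLC25A20, 0.50 for CRAT, 0.43 for CPT2 and 0.43 for TMLHE. Control pool 1 was the lowest pool for TMLHE, at -0.81, and for SLC22A5, at -0.34, and control pool 2 was the lowest for CRAT, CPT1A and SLC25A20, at -0.42, -0.29 and -0.28.

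**Figure D3:**
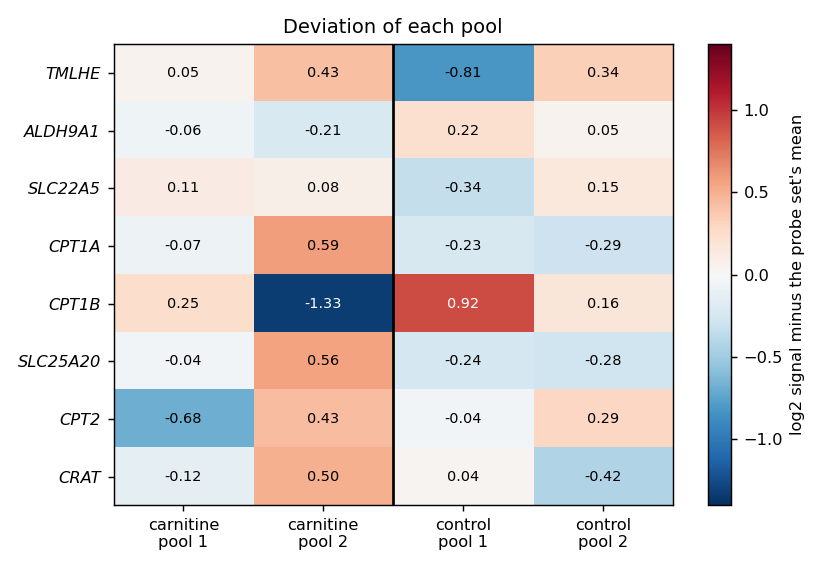
Log2 signal of each pool minus the mean of the probe set over the 4 arrays, with rows for the carnitine system genes and columns for the pools, carnitine pools left of the line and control pools right of it. Red is above the mean and blue below it, and the column of carnitine pool 2 is above the mean for 6 genes, between 0.43 and 0.59 for 5 of them and at 0.083 for SLC22A5, and below it for CPT1B at -1.33 and ALDH9A1 at -0.21.

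The differences of the shuttle genes therefore depended on single pools. Without carnitine pool 2 the log2 difference of CPT1A was 0.19 and that of SLC25A20 was 0.23, against 0.85 and 0.82 without carnitine pool 1. For CRAT the values were 0.068 without carnitine pool 2 and 0.69 without carnitine pool 1, and they also moved with the controls, to 0.61 without control pool 1 and 0.15 without control pool 2. Leaving out control pool 1 gave a log2 difference of -0.10 for TMLHE and -0.048 for SLC22A5, and leaving out control pool 2 gave 1.05 for TMLHE and 0.44 for SLC22A5. CPT2 changed sign to 0.31 without carnitine pool 1. CPT1B ranged between -1.87 without carnitine pool 1 and -0.30 without carnitine pool 2. ALDH9A1 moved least, between -0.36 and -0.19.

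**Figure D4:**
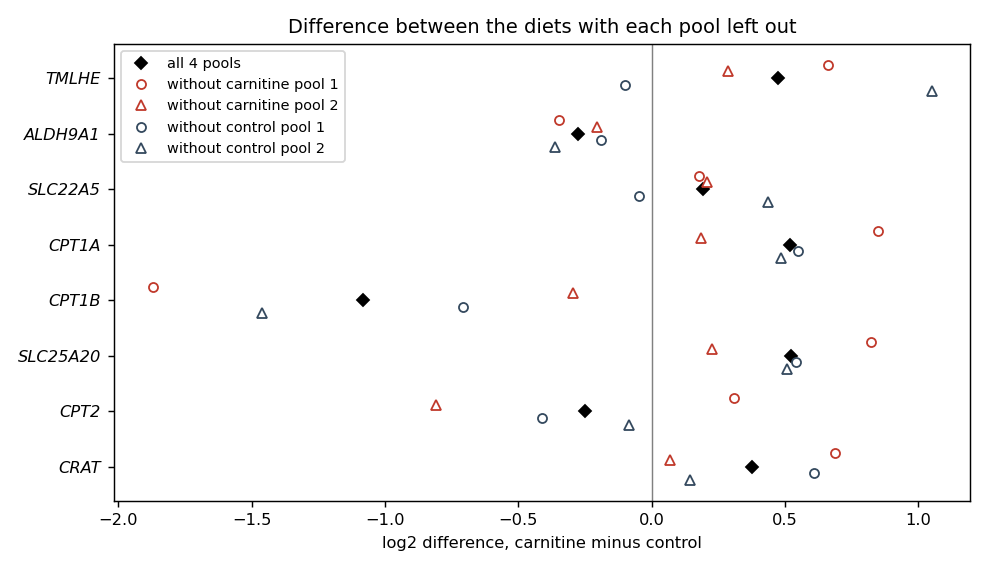
Log2 difference, carnitine minus control, of each carnitine system probe set over all pools (diamonds) and with 1 pool left out (red for a carnitine pool, dark for a control pool, circles for pool 1 and triangles for pool 2). CPT1A, SLC25A20 and CRAT stay above 0 and ALDH9A1 and CPT1B below 0 in every case, while TMLHE, SLC22A5 and CPT2 have points on both sides of 0.

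Other genes of carnitine synthesis and transport were represented by 3 of the 9 listed, and none had an unadjusted p under 0.05 for its brightest probe set. SHMT1, a serine hydroxymethyltransferase of the family proposed to cleave hydroxytrimethyllysine, gave signals of 9906 and 9586 in carnitine pools, against 7838 and 8243 in control pools. Its pools did not overlap, and the log2 difference was 0.28 (standard error 0.18, adjusted p = 0.706 from limma). The brightest probe set of CPT1C, the isoform of neurons, had 139 and 175 against 133 and 198 (log2 difference -0.055), and SLC6A14, a transporter of amino acids that also carries carnitine, was dim at 20.4 and 10.8 against 10.9 and 14.3. BBOX1, the enzyme of the last step of synthesis, was not analysed here.

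CPT1 is inhibited by malonyl-CoA, which acetyl-CoA carboxylase makes and AMP-activated protein kinase restrains. Of 12 genes listed for this control 9 were measured, most of them kinase subunits, and ACACB, ACLY and MLYCD were not. Of the 9, 6 were below and 3 above 0. Their median log2 difference was -0.31, or -0.18 with the mean over the probe sets of a gene. No gene passed the adjusted p or had an unadjusted p under 0.05, and 4 of 9 had both carnitine pools below both control pools, beside 20.4% of all probe sets. These were all kinase subunits, namely PRKAG2 at 238 and 256 in carnitine pools, against 370 and 369 in control pools (log2 difference -0.58, standard error 0.25), PRKAB2 (-0.72, standard error 0.35), PRKAA1 (-0.51, standard error 0.37) and PRKAG1 (-0.25, standard error 0.20). Other probe sets of PRKAA1 and PRKAG1 gave 0.16 and 0.36.

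Fatty acids reach the shuttle as acyl-CoA, made by synthetases. Of 23 listed genes 11 were measured, 6 above and 5 below 0 with a median log2 difference of 0.073. By the brightest probe set of each gene, 1 had an unadjusted p under 0.05, beside 8.65% of all probe sets. That gene was SLC27A6, a fatty acid transport protein, and its brightest probe set gave 126 and 259 in carnitine pools, against 93.9 and 60.2 in control pools (log2 difference 1.26, standard error 0.48, adjusted p = 0.527 from limma). The study selected this gene on the same samples, so its direction is not independent evidence. Its other probe sets, both dim, gave 0.85 and, with both carnitine pools below both control pools, -0.74. The long-chain acyl-CoA synthetase ACSL1 had 25157 and 28754 against 24899 and 21139 (log2 difference 0.23, standard error 0.21). ACSL5, another synthetase of long chains, gave a log2 difference of 0.30 (standard error 0.22), and ACSS2, which activates acetate in the cytosol, one of -0.46 (standard error 0.34).

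Downstream of the shuttle all 21 listed genes of mitochondrial β-oxidation were measured, 9 above and 12 below 0 with a median log2 difference of -0.045. At an unadjusted p under 0.05, 1 of the 21 was higher and 1 lower, beside 4.72% and 3.93% of all probe sets, so that their number was near the background. IVD, isovaleryl-CoA dehydrogenase of leucine breakdown, gave signals of 1737 and 1781 in carnitine pools, against 2473 and 2873 in control pools (log2 difference -0.60, standard error 0.19, adjusted p = 0.458 from limma). The remaining probe sets of IVD did not share one direction, at -0.36, 0.83 and -0.093. ACAD8, isobutyryl-CoA dehydrogenase of valine breakdown, had 2199 and 2027 against 1739 and 1027 (log2 difference 0.66, standard error 0.27, adjusted p = 0.561 from limma). ETFB, a subunit of the electron transfer flavoprotein, gave -0.39 (standard error 0.19). HADHB, a subunit of the trifunctional protein that handles long-chain acyl groups, gave 0.45 (standard error 0.28), with 3021 and 4449 in carnitine pools, against 2180 and 3305 in control pools. Carnitine pool 2 was the highest pool for 7 of these 21 genes, or 33.3%, beside 27.7% of all genes with 1 symbol.

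Peroxisomes shorten very long and branched acyl groups and pass them on as carnitine esters. Of the 17 genes listed, 12 were measured, with 6 above and 6 below 0, a median log2 difference of 0.011 and none at an unadjusted p under 0.05. ABCD3, an importer of acyl-CoA into peroxisomes, had 5496 and 9986 in carnitine pools, against 3418 and 5455 in control pools (log2 difference 0.78, standard error 0.34, adjusted p = 0.586 from limma). Its other probe sets gave 0.31 and, for one with an unadjusted p of 0.00761 (adjusted p = 0.410 from limma), 1.99. HSD17B4, the D-bifunctional protein, and ACOX2, the oxidase of branched chains and bile acid precursors, had log2 differences of -0.32 and -0.26 (standard errors 0.20 and 0.18), and PHYH, which starts the breakdown of phytanic acid, 0.39 (standard error 0.31). A second probe set of ACOX2 gave -1.17 (unadjusted p = 0.00565, adjusted p = 0.399 from limma).

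Carnitine also buffers the pool of CoA, for which 10 of 20 genes of CoA synthesis and acyl-CoA hydrolysis were measured, 4 above and 6 below 0 with a median log2 difference of -0.075 and none at an unadjusted p under 0.05. PANK1, a pantothenate kinase that sets the rate of CoA synthesis, had 4745 and 5008 in carnitine pools, against 5985 and 5808 in control pools (log2 difference -0.27, standard error 0.18), and its other probe sets, both dim, gave -1.31 and -0.70. ACOT13, a thioesterase, gave -0.41 (standard error 0.22), ACOT6 0.31 (standard error 0.25) and COASY, the last enzyme of CoA synthesis, -0.14 (standard error 0.21). For ketone bodies 3 of 8 genes were measured, with log2 differences of 0.29 for BDH1, 0.041 for BDH2 and -0.078 for OXCT1, which gave a median of 0.041.

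CPT1A, CPT2 and SLC25A20 are known targets of PPARA, the fatty acid sensor of liver. Of 26 genes that comprise this receptor, its partners and other targets, 16 were measured, 8 above and 8 below 0 with a median log2 difference of -0.0045. At an unadjusted p under 0.05, 2 were higher and 2 lower, beside 4.72% and 3.93% of all probe sets, and 0 passed the adjusted p in limma. ANGPTL4, an inhibitor of lipoprotein lipase, had 1892 and 2726 in carnitine pools, against 348 and 1300 in control pools (log2 difference 1.76, standard error 0.55, adjusted p = 0.460 from limma). A second probe set of ANGPTL4 gave 1.33. PLIN2, a lipid droplet protein, had 405 and 2121 against 196 and 336, with carnitine pool 2 far above the other pools (log2 difference 1.85, standard error 0.70, adjusted p = 0.527 from limma). PDK4, a kinase that inactivates pyruvate dehydrogenase, had the opposite direction, with 3386 and 1744 against 4711 and 6327 (log2 difference -1.17, standard error 0.33, adjusted p = 0.421 from limma). A second probe set of PDK4 gave -0.52. TXNIP, a thioredoxin-binding protein, had 7114 and 6264 against 9059 and 19563 (log2 difference -0.996, standard error 0.35). The genes of this list thus lay on both sides of 0, and the probe set used for PPARA itself was dim, at 1.61 and 15.6 in carnitine pools, against 4.75 and 3.92 in control pools.

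**Figure D5:**
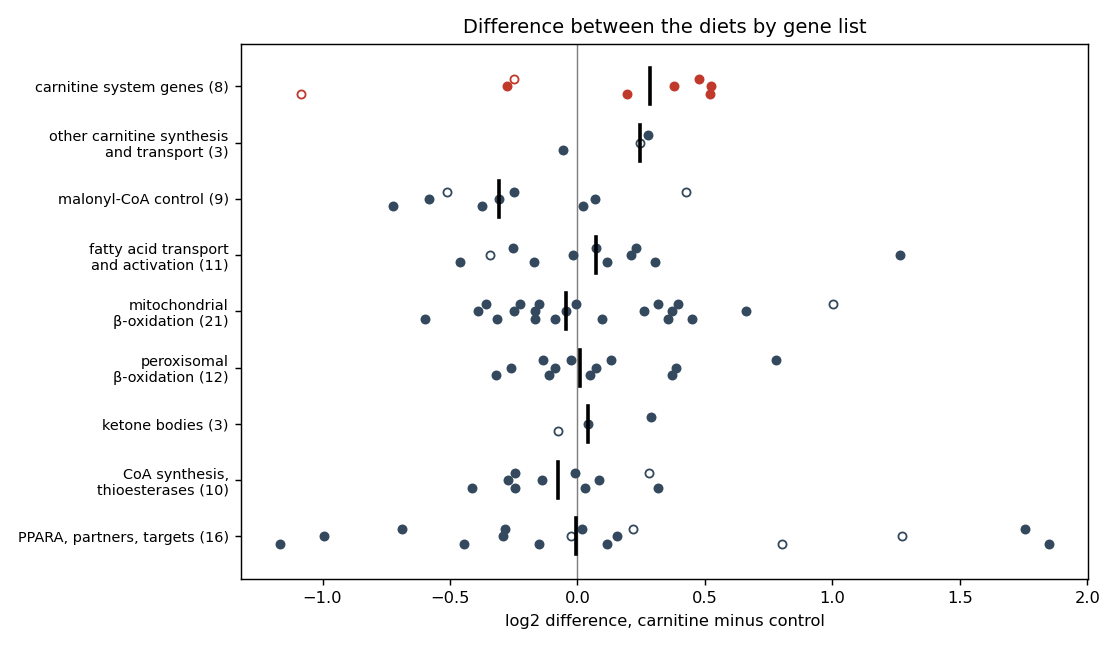
Log2 difference, carnitine minus control, of the measured genes of each list (brightest probe set of a gene), with the carnitine system in red, the other lists in dark grey, open points for dim probe sets, a black tick at the median and the number of measured genes in parentheses. The median of the carnitine system is 0.29. That of the genes of malonyl-CoA control, mostly kinase subunits, is -0.31 (-0.18 with the mean over a gene's probe sets). The largest spread is among the genes linked to PPARA, with PDK4 at -1.17 and PLIN2 at 1.85.

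Markers of hepatocytes were bright on every array: 13 of 15 were measured, with a summed signal of 411615 and 375020 in carnitine pools, against 442542 and 404156 in control pools. Markers of skeletal and cardiac muscle, the tissues of CPT1B, were dim for 10 of 11 measured genes. Their summed signal was 410 and 338 in carnitine pools, against 483 and 434 in control pools. The sum was lower with carnitine, but DES made up a large part of it, and a link to CPT1B was not tested. By gene 3 muscle markers were above and 8 below 0. DES, the brightest of them, gave 178 and 158 in carnitine pools, against 212 and 221 in control pools, whereas MYH7, the slow myosin heavy chain, gave 51.4 and 30.9, against 22.3 and 11.7 in control. None of the 11 measured muscle markers had an unadjusted p under 0.05 in limma. The summed signal of 5 adipocyte markers, all dim, was 197 and 241 in carnitine pools, against 277 and 379 in control pools. By gene 1 was above and 4 below 0. That of 6 macrophage markers was 3952 and 3402, against 4761 and 4376, with 2 genes above and 4 below 0. In summed signal control pool 2 stood above the other pools for stellate and fibroblast markers (4097 and 3966 with carnitine, against 3028 and 10140 in control). The same held for endothelial cells (3427 and 2223, against 2792 and 4804) and cholangiocytes (1769 and 1311, against 1240 and 7364). Single genes made up much of the first and last of these sums in control pool 2, with ACTA2 at 5533 and SPP1 at 6231. Other genes of these lists differed. COL1A2 was lowest in control pool 2, at 345, and the dim CFTR was higher in both carnitine pools. By gene 2 of 7 stellate and fibroblast markers and 2 of 5 cholangiocyte markers had a log2 difference above 0. T and NK cell markers gave 689 and 538, against 922 and 677 in control, although 3 genes were above and 2 below 0. The 3 neutrophil markers, all dim, gave 68.3 and 97.4, against 122 and 86.0. The 2 erythroid markers summed to 668 and 539, against 922 and 1219, and differed from each other. ALAS2 gave 358 and 240, against 644 and 917, whereas HBB gave 310 and 299, against 278 and 301. As a measure of intact RNA and labelling, the ratio of 3' to 5' signal of GAPDH was 18.7 and 16.1 on the carnitine arrays, against 12.5 and 11.6 on the control arrays, and that of actin 157 and 136, against 91.2 and 86.7. EF1A gave 23.4 and 29.6, against 57.9 and 18.2 in control, so that its diets overlapped. The dap spike-in, which is not liver RNA, gave 11.0 and 7.83, against 19.7 and 17.8. GAPDH and actin ratios were thus higher on both carnitine arrays, a direction that EF1A and the spike-in did not share. The part of cell composition and RNA quality in the differences between the diets was not tested.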

How the data were processed

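Liver RNA of 2 carnitine pools and 2 control pools was measured on Affymetrix porcine arrays. The authors deposited signal intensities, linear and scaled by MAS5, and the submitters' processing notes list MAS5 5.0, Affymetrix Expression Console 1.1 and GCOS 1.1.2. No detection call entered the analysis. The number of arrays limits the precision. The labels number the pools as biological replicates.

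Signals were log2-transformed without a pseudocount. Of 24123 probe sets 124 controls were left out, and 23999 were tested without a filter with limma 3.58.1 in R 4.3.3 (lmFit, eBayes with a variance trend, 2 residual degrees of freedom), with Benjamini-Hochberg adjustment at 0.05. An exact permutation test of 2 against 2 pools cannot give a two-sided p below 0.333. Alternatives were quantile normalization, median centring, a floor or an offset of 64 for dim signals, a filter at the median signal, no variance trend, a robust prior, arithmetic means, the mean over a gene's probe sets, the one-factor test of the methods, the replicate block and leaving out each pool. Of the tested probe sets 10069 had 1 symbol in the array's annotation, 198 several and 13732 none, and where a gene of a list had several probe sets the one with the highest mean log2 signal was used. A probe set is called dim below a mean signal of 111, the median.

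The members, lists and alternatives were chosen with earlier results of these data known. Besides the members the text names, per list, at most 4 genes in order of unadjusted p, and the 3 genes nearest in pattern to members whose pools did not overlap. Further probe sets of these genes, PPARA, PRKAA2, STK11, ACACA and the named cell type markers were added after their values were seen. Quantitative PCR and tissue carnitine were not analysed here.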

Additional observations from a re-analysis of the deposited data

How the results depend on the processing

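No member passed an adjusted p of 0.05 under any alternative tried, by limma or by the one-factor test of the methods. The number of members with an unadjusted p under 0.05 was 1 with arrays centred on their median (SLC25A20), 1 with the replicate block (CPT1A), and 0 to 3 when single pools were left out, namely CPT1A, CPT1B and SLC25A20 without carnitine pool 1 and TMLHE without control pool 2. Over all probe sets the number past the adjusted p was 2 with a floor at the 25th percentile of signals, 3 with only probe sets above the median signal, 0 without a variance trend, 0 by the one-factor test, and 0 to 8 with single pools left out, and at an unadjusted p it was 984 to 3003 in the last case. With the replicate number as a block 106 probe sets passed. The labels give these numbers no shared animal, litter or batch. The deviations of same-numbered pools from their diet's mean correlated at 0.0032 over probe sets above the median signal. An effect shared by same-numbered pools on part of the probe sets was not tested. With single pools left out, the log2 difference ranged between -0.81 and 0.31 for CPT2, between -0.048 and 0.44 for SLC22A5 and between -0.10 and 1.05 for TMLHE, and the median of the system between -0.074 and 0.49. The medians of the other lists also moved, and with single pools left out that of mitochondrial β-oxidation reached 0.13, that of the fatty acid transport and activation genes -0.12 and that of CoA genes -0.26. That of the genes linked to PPARA was -0.22 with only probe sets above the median signal, and that of peroxisomal genes -0.10 with the mean over a gene's probe sets. The fits without a pool leave 1 pool of a diet, which is assumed to vary like the others. Of all 297 values under alternatives, 263 were taken as unchanged. They kept their direction and call, moved within the spread or, for counts of probe sets, stayed within a fixed ratio of the main count. That ratio was wide: 1433 with only probe sets above the median signal was taken as the same as 2076. CPT1A, SLC25A20, CRAT, CPT1B and ALDH9A1 kept their sign under all alternatives tried for them. Both the 263 values and the kept signs include settings that change only the error of the fit, so that signs and medians there were fixed in advance. These settings were no variance trend, the robust prior, the one-factor test and the replicate block. Signal over background is unknown without detection calls, which limits CPT1B and CPT2 most.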

Other observations

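The 3 probe sets annotated to CPT1C did not behave alike. One gave 13.8 and 13.1 in carnitine pools, against 2.03 and 3.62 in control pools. Its log2 difference was 2.31 (standard error 0.94, unadjusted p = 0.0428, adjusted p = 0.556 from limma). It was chosen after its values were seen. The others gave -0.055 and -0.053, and all signals of the first lay far below the median of 111. The second probe set of ACSS2 had 915 and 185 in carnitine pools, against 653 and 786 in control pools, so that carnitine pool 2 was the lowest pool for both probe sets of this gene, the reverse of its place for CPT1A, SLC25A20 and CRAT.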
